A study of Rattus norvegicus with 6 samples.

Results

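Day 21 of chronic cerebral hypoperfusion was compared with control in the rat hippocampus across all genes of a whole-genome oligonucleotide array. Of the 6 arrays in the series, 2 enter this comparison, 1 for the control group and 1 for day 21, and they lie on the same slide. The arrays carry 17637 named genes; 14037 of them, bright enough on 1 or both of the 2 arrays, could be compared, which is the population described below. The remainder were above background on neither array or without a value (3555 genes) or saturated on both arrays (45 genes).

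The control RNA came from male rats of the Wistar strain (spelled Wister in the labels), given as 12 weeks old and with no stated days of occlusion. The day 21 RNA came from male Wistar rats labelled 13 weeks old, 21 days after both common carotid arteries had been tied off tightly with a double silk ligature under isoflurane. The labels give the same description, a 12-week-old rat, to every group, so the ages do not track the days elapsed. RNA was pooled before labelling; how many rats entered a pool, and whether control rats had a sham operation, are not stated in the labels. A day 35 array, from rats labelled 14 weeks old, lies on the same slide. The 3 arrays of days 45, 55 and 70, from rats labelled 15, 16 and 17 weeks old, lie on a second slide. All of these are used below as further reference levels. With 1 array a side there is no replicate spread, so differences are given as measured, without a p-value, and a change in the number of cells of a type cannot be told apart from a change in RNA per cell.

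Permanent ligation of both carotids leaves the rat forebrain supplied by the vertebral arteries and lowers its blood flow without a full stroke, and the model is used for vascular cognitive impairment. Microglia, the resident phagocytes of the brain, answer tissue stress by changing from a surveying to a phagocytic and antigen-presenting state, and astrocytes answer with intermediate filament, protease inhibitor and acute-phase genes. Complement proteins made by both cell types tag material, synapses included, for removal, and interferons switch on a shared set of antiviral genes through elements close to their promoters.

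Levels below are log2 signal relative to the 75th percentile of the same array, so a level of 0 is a fairly bright probe, and a difference is day 21 minus control on that log2 scale. A gene counted as higher or lower differed by at least 2-fold, a difference of 1. Where a gene was well above background on 1 side only, its fold is a lower limit against the lowest signal well above background and is written "at least". Such a limit holds for this background treatment only. Of the genes compared, 508 were at least 2-fold higher at day 21 (3.62%) and 265 at least 2-fold lower (1.89%), together 5.51%. Among the 13063 genes measured on both arrays, 380 were higher and 141 lower. The larger steps were more one-sided: 123 genes were at least 4-fold higher against 30 lower, and 40 at least 8-fold higher against 7 lower. The median over all genes compared was -0.07. The split between higher and lower depends on how background is treated: 242 genes were higher and 28 lower with a normexp background correction, and 373 and 113 in the authors' deposited value table.

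The surplus of higher genes held at every brightness but was steepest among bright probes. With the genes split by mean level into 3 equal groups, 295 were higher and 243 lower among the dim genes, 146 and 22 among the middle genes, and 67 and 0 among the bright ones. The bright probes are the most reliable ones, because their signal lies far above background. On 1250 probes that were printed in 10 spots and bright on both arrays, the median standard error of the difference from spot to spot was 0.03, which covers spotting and scanning only and not the rats.

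**Figure D1:**
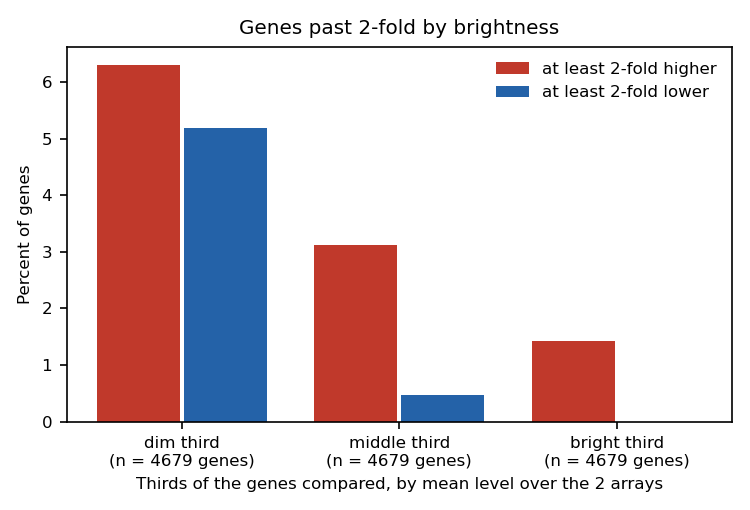
Percent of genes at least 2-fold higher (red bars) or lower (blue bars) at day 21, in 3 equal groups of the genes compared, ordered by mean level. The shares go from 6.30% and 5.19% among dim genes to 1.43% and 0% among bright ones.

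**Figure D2:**
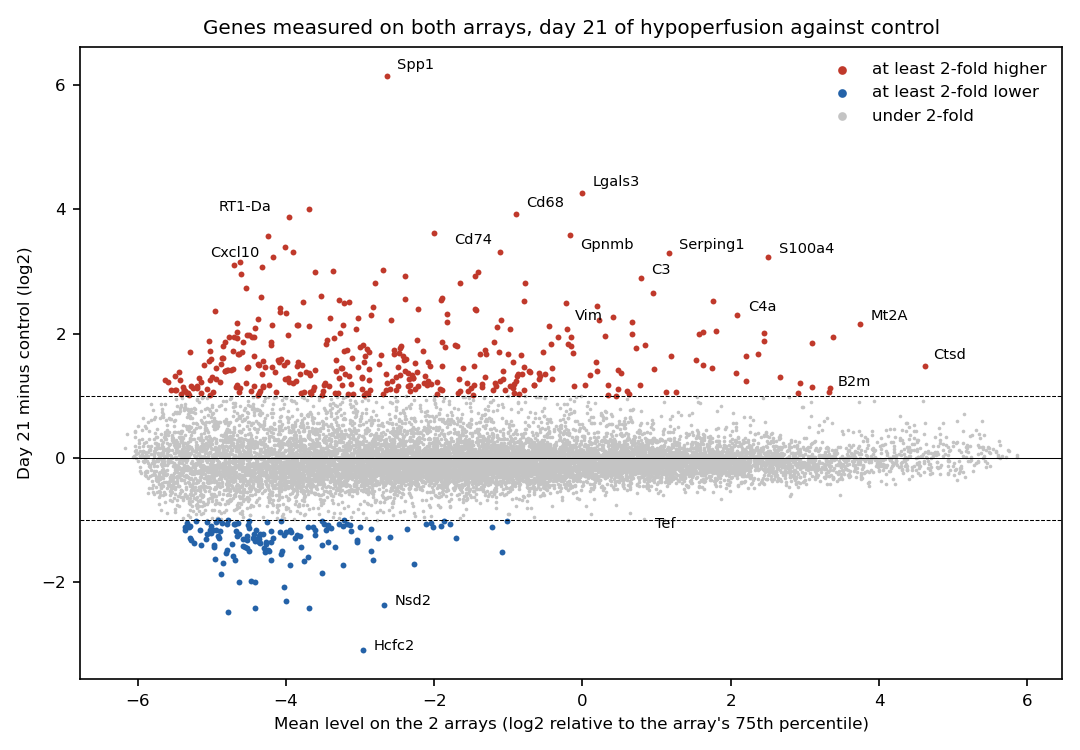
Day 21 minus control (log2, vertical axis) against the mean level on the 2 arrays (log2 relative to the array's 75th percentile, horizontal axis) for the 13063 genes measured on both arrays; red points are at least 2-fold higher, blue at least 2-fold lower, and dashed lines mark 2-fold. Spp1 stands highest at 6.15, red points reach into the brightest levels, and the blue points lie mostly at the dim end.

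Genes of activated phagocytes had the largest differences. Spp1, which encodes osteopontin, a secreted adhesive protein made by phagocytic microglia and macrophages, stood at -5.72 in control and 0.43 at day 21, a 70.9-fold difference and the largest of any gene measured on both arrays. It is printed in 10 spots, with a spot SD of 0.17 in control and 0.04 at day 21. Its control signal was dim, and the difference of 6.15 became 4.33 with normexp and 5.36 in the authors' value table. Lgals3, the sugar-binding galectin-3, stood at -2.14 in control and 2.13 at day 21, 19.3-fold higher. Cd68, a lysosomal membrane protein of phagocytes, went from -2.86 to 1.07, 15.2-fold. Gpnmb, a glycoprotein of lipid-loaded macrophages, went from -1.96 to 1.63, 12.1-fold.

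On all 4 later arrays these genes lay closer to control than to day 21. Spp1 stood between -5.33 and -4.36 on those arrays, Lgals3 between -2.23 and -1.06, Cd68 between -3.43 and -3.13, and Gpnmb between -1.70 and -1.02. Each of them was highest at day 21, above the range of the other 5 arrays.

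Of 25 genes compared on a list of phagocyte activation genes, 16 were higher and 0 lower, with a median of 1.27. Trem2, the lipid-sensing receptor of microglia, had a level of 0.50 in control and 3.02 at day 21, 5.75-fold higher. Tyrobp, the adaptor that signals for it, was 4.04-fold higher, and Igf1, a growth factor made by such cells, 6.30-fold. The phagocyte oxidase was split: the subunits Ncf1 and Cyba were 5.78-fold and 4.11-fold higher, while its catalytic subunit Cybb was dim on both arrays and differed by -0.30. Clec7a, a receptor for fungal glucans, was well above background on the day 21 array alone of 6, at least 6.86-fold over control. Lpl, lipoprotein lipase, belongs to the same list and differed by -0.22.

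Markers of surveying microglia differed less. Of 19 compared, 5 were higher, with a median of 0.72, or 0.40 with normexp, and 17 above 0. Aif1, which encodes the IBA1 protein used to stain microglia, was 3.17-fold higher, and the purine receptor P2ry12 2.25-fold, whereas the fractalkine receptor Cx3cr1 differed by 0.07 and Tmem119 by 0.24. Fcrl2, an Fc receptor-like gene, had the largest difference of the list, 7.04-fold.

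Receptors and adaptors of innate sensing were higher as a body. All 20 genes compared on a list of Toll-like, Fc and ITAM receptor signalling lay above 0, all 20 had day 21 as the highest of the 6 arrays, and 13 passed 2-fold, with a median of 1.31. Fcgr2b, an inhibitory receptor for IgG, went from -2.91 to 0.02, 7.59-fold higher. The double-stranded RNA sensor Tlr3 was 4.20-fold higher, the inflammasome adaptor Pycard 3.30-fold, and the shared Fc receptor chain Fcer1g went from 0.58 to 2.58. Tlr2 passed the threshold narrowly at 2.06-fold and Tlr4, the endotoxin receptor, did not at 0.51.

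Leukocyte adhesion genes differed unevenly. The leukocyte integrin chain Itgb2 was 5.26-fold higher, the pan-leukocyte phosphatase Ptprc 4.76-fold, the hyaluronan receptor Cd44 4.22-fold, Itgam by 1.32 on the log2 scale and the vessel ligand Icam1 by 1.15. The other 8 genes of that list lay between -0.31 and 0.28. Among transcription factors, Tfec was bright on the day 21 array alone, at least 21.1-fold over control, the largest lower limit among the higher genes; Spi1, which encodes PU.1, was 2.42-fold higher and Irf8 at least 3.43-fold. Bcl3, a nuclear partner of NF-kappaB, went from -4.20 to -1.39 while Rela differed by -0.03.

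Markers of other immune cells were mixed. Of 13 T and NK cell markers compared, 0 were higher and 0 lower, with a median of 0.17: Cd3e differed by -0.24 and Cd4 by 0.58, and Cd8a was not well above background on either array. All 4 B and plasma cell markers compared lay below 0, with a median of -0.45, and Mzb1 was at least 7.67-fold lower, but it was as low at day 35, with a limit of -3.28. The median of this list turned to 0.21 with no filter on dim probes, 0.21 against the day 35 array and 0.42 against the mean of the other 5 arrays. Of 8 neutrophil and mast cell markers compared, 3 were higher and 1 lower, with a median of 0.33, and none passed 2-fold with normexp: Mpo, Csf3r and S100a8 were higher by 1.46, 1.39 and at least 1.28, S100a9 differed by 0.29 and Fcer1a was at least 2.26-fold lower. Among 7 markers of perivascular macrophages compared, 6 lay above 0 and 1 passed 2-fold, with a median of 0.89, or 0.38 with normexp. Siglec1 was bright at day 21 only, at least 15.9-fold over control, Cd163 had a lower limit of 0.93, Folr2 differed by -0.02 and Mrc1 was above background on neither array. The median of red blood cell genes was 0.18.

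Complement was the list with the highest median. Of 18 genes of complement activation compared, 12 were higher and 0 lower, and the median was 1.66. All 3 chains of C1q, the molecule that starts the classical pathway, were higher: C1qa went from 1.38 to 3.03, C1qb from 2.41 to 4.35 and C1qc from -1.65 to 0.00, between 3.12-fold and 3.84-fold. The attached proteases C1r and C1s followed at 3.33-fold and 3.16-fold. Downstream, C2 was 4.57-fold higher, C4a 4.91-fold, and C3, on which all pathways converge, went from -0.66 to 2.23, 7.40-fold. In the alternative pathway Cfd was 5.86-fold and Cfb 3.23-fold higher.

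The terminal and lectin pathways were mixed. The ficolin Fcna, which starts the lectin pathway, was higher by 1.37, and C6 was bright at day 21 only, with a lower limit of 1.77. C5 differed by -0.23 and C9 by -0.25, and the lectin pathway proteases Masp1 and Masp2 by -0.61 and -0.86. Among 11 receptors and inhibitors compared, all lay above 0 and 5 were higher. Serping1, the inhibitor of C1r and C1s, went from -0.49 to 2.81, 9.81-fold, more than any of the activating genes. The C5a receptor C5ar1 was 3.26-fold higher and the C3a receptor C3ar1 at least 3.04-fold, while the membrane inhibitors Cd55 and Cd46 differed by 0.10 and 0.02.

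Genes of antigen presentation by class II differed more than those of class I. Of 11 class II genes compared, 7 were higher and 11 above 0, with a median of 1.17. RT1-Da, the rat class II alpha chain, went from -5.89 to -2.02, 14.7-fold; Cd74, the invariant chain that escorts class II molecules, from -2.77 to 0.54, 9.93-fold; RT1-Bb from -3.86 to -0.94, 7.59-fold. The thiol reductase Ifi30, which opens antigens for class II, was 4.56-fold higher. On the later arrays RT1-Da stood between -4.88 and -3.59 and Cd74 between -2.55 and -1.23, above control and under day 21. With normexp the differences of RT1-Da and Cd74 were 2.15 and 2.94. Ciita, the class II transactivator, was above background on neither array. Members of the RT1 families are near copies of each other, so a probe may read more than 1 of them.

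For class I, 20 genes were compared, 18 lay above 0 and 1 passed 2-fold, with a median of 0.43. That gene was B2m, the shared light chain, which went from 2.79 to 3.85, 2.09-fold. The heavy chains RT1-A2 and RT1-A1 differed by 0.99 and 0.91. Immunoproteasome subunits Psmb9 and Psmb8 differed by 0.96 and 0.91 and the peptide transporter Tap1 by 0.23. The constitutive proteasome served as the contrast: of 25 genes compared, none was higher or lower, the median was -0.08, and Psmb5, the subunit that Psmb8 replaces, differed by 0.04.

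Interferon-induced genes were higher, and the listed genes of interferons and their receptors differed little. Of 46 induced genes compared, 43 lay above 0, 18 were higher and 0 lower, with a median of 0.82. Cxcl10, a chemokine for T cells, went from -5.80 to -2.56, 9.44-fold; Rsad2, an antiviral enzyme, from -2.21 to -0.10, 4.32-fold; Isg15, a ubiquitin-like tag, from -1.38 to 0.33, 3.27-fold. Ifitm1 was 5.22-fold higher, Bst2, which tethers budding virus, 3.20-fold, Gbp2 3.20-fold and the regulator Irf7 2.49-fold. With normexp the difference of Cxcl10 was 1.72. Among 6 listed genes of interferons, receptors and their kinases compared, none passed 2-fold and the median was 0.03. Ifna4 differed by -0.17, Ifngr1 by 0.43 and Ifnar1 by -0.02, and Ifng was above background on neither array. Ifna1l1, an interferon gene outside this list, was among the 2-fold lower genes. At day 35 the interferon-induced genes had a median of -0.30 against the same control array.

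Promoters of these genes are shown because the genes are grouped by the element that interferon signalling uses. In the 250 bases before the gene start (RefSeq, assembly GRCr8), the letters GAAA, any 2 bases and again GAAA, the core of the interferon-stimulated response element, were searched on both strands, overlapping matches included. They occurred in 26 of 36 promoters found for the interferon-induced list (72.2%), in 11 of 14 of its 2-fold higher genes and in 15 of 22 of the others. The share was 9.79% of 378 promoters of all 2-fold higher genes, 2.76% of 217 promoters of lower genes and 2.63% of all 11397 compared genes with a promoter. The list was composed of known interferon targets, so its share describes the list. Stretches around the match are printed in the direction of the gene, with the matching letters in capitals, on either strand.
Ifit3 (chr1:241527242-241527325, plus strand): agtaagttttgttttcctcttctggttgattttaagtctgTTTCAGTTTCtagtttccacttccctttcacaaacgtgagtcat
Irf7 (chr1:205800043-205800132, minus strand): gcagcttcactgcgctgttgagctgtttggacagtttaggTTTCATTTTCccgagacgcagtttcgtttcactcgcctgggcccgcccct
Rsad2 (chr6:48788218-48788307, minus strand): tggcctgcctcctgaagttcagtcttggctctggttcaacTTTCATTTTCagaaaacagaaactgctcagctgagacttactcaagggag
Bst2 (chr16:18255043-18255138, minus strand): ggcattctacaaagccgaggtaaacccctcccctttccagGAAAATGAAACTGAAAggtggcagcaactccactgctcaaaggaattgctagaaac
The first base of the match lies 44 bases before the start of Ifit3, 69 before that of Irf7 and 147 before that of Rsad2; Bst2 holds 2 overlapping matches. A match is a run of letters and was not tested for binding.

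For class II, the X box, a motif read by an RFX-containing complex, was searched the same way as CC, any 2 bases, G, any 2 bases, AC, any base, GATG. It occurred in 3 of 9 class II promoters found, RT1-Da, RT1-Bb and RT1-DOb, each at least 2-fold higher at day 21, and in 0.219% of all compared genes with a promoter. The letters CCAAT, the core of the neighbouring Y box, were in 6 of the 9, against 35.3% of all compared genes with a promoter.
RT1-Da (chr20:4515289-4515382, plus strand): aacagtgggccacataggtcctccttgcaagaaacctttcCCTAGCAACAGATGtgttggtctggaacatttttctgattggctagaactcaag
RT1-Bb (chr20:4604162-4604255, minus strand): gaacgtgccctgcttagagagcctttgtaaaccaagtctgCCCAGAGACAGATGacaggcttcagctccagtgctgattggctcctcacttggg
RT1-DOb (chr20:4627587-4627680, minus strand): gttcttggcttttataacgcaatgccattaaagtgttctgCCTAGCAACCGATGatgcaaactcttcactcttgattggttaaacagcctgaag
In each of these 3 promoters the CCAAT letters appear inverted, as attgg, a short way behind the X box. The 250-base windows of the remaining class II genes hold no run that meets the X box letters.

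Several higher genes are neighbours in the genome. The windows listed are those that held at least 4 higher genes, where 3.62% of all genes compared were higher. In windows of 1000000 bases of the rn4 assembly, which the array's annotation uses, the window on chromosome 20 from 4000001 to 5000000, in the major histocompatibility complex, held 7 higher genes of 44 compared: C2, C4a, Cfb, Gpsm3, RT1-Bb, RT1-DOb and RT1-Da. The window on chromosome 10 from 71000001 to 72000000 held 6 of 20, the chemokines Ccl3 and Ccl4 and the Schlafen genes Slfn2, Slfn4, Slfn5 and Slfn9, which are near copies. On chromosome 2 from 182000001 to 183000000, S100a3, S100a4, S100a6 and S100a8 were 4 higher genes of 30, and on chromosome 4 from 159000001 to 160000000, Apobec1, C3ar1, Clec4a and Clec4a3 were 4 of 12. On chromosome 1 from 79000001 to 80000000, Bcl3, Irgc, Kcnn4 and Lypd5 were 4 of 26. On chromosome 18 from 56000001 to 57000000, 4 of 14 were higher, Cd74 among them.

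Inflammatory chemokines were higher while Cx3cl1 and Cxcl12 were level. Of 23 compared, 11 were higher and 0 lower, with a median of 0.98. The monocyte attractants were not well above background in control: Ccl2 was printed in 10 spots and stood at -2.46 at day 21, at least 14.9-fold over control, Ccl3 at least 11.3-fold, Cxcl13, which attracts B cells, at least 5.87-fold and Ccl7 at least 3.80-fold. Cxcl17 went from -5.56 to -2.24, 9.99-fold, and Cxcl16 was 5.25-fold higher. With normexp the difference of Cxcl17 was 1.90. Neuronal Cx3cl1, among the brightest genes at 5.17 and 5.00, differed by -0.17 and Cxcl12 by -0.17. Among 16 chemokines bright on both arrays the median was 0.62 and 4 were higher.

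Cytokine genes differed little. Of 28 compared, 2 were higher: Il1rn, the antagonist of the IL-1 receptor, 3.64-fold, and Il18 2.42-fold. Il1b was bright at day 21 only, with a lower limit of 0.72, Tnf differed by 0.42, Csf1 by 0.74, and Il6 was above background on neither array. Il17a was the 1 lower cytokine, at least 5.06-fold, and its day 35 signal was not well above background either. In eicosanoid synthesis, Hpgds and Tbxas1, which make prostaglandin D2 and thromboxane, were 3.50-fold and 3.44-fold higher; the prostaglandin receptor Ptger1 was at least 2.22-fold lower, Ptgs2 differed by -0.43 and the median of 18 genes was 0.04. Nos2 and Arg1, often used to sort macrophage states, differed by 0.18 and -0.20.

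**Figure D3:**
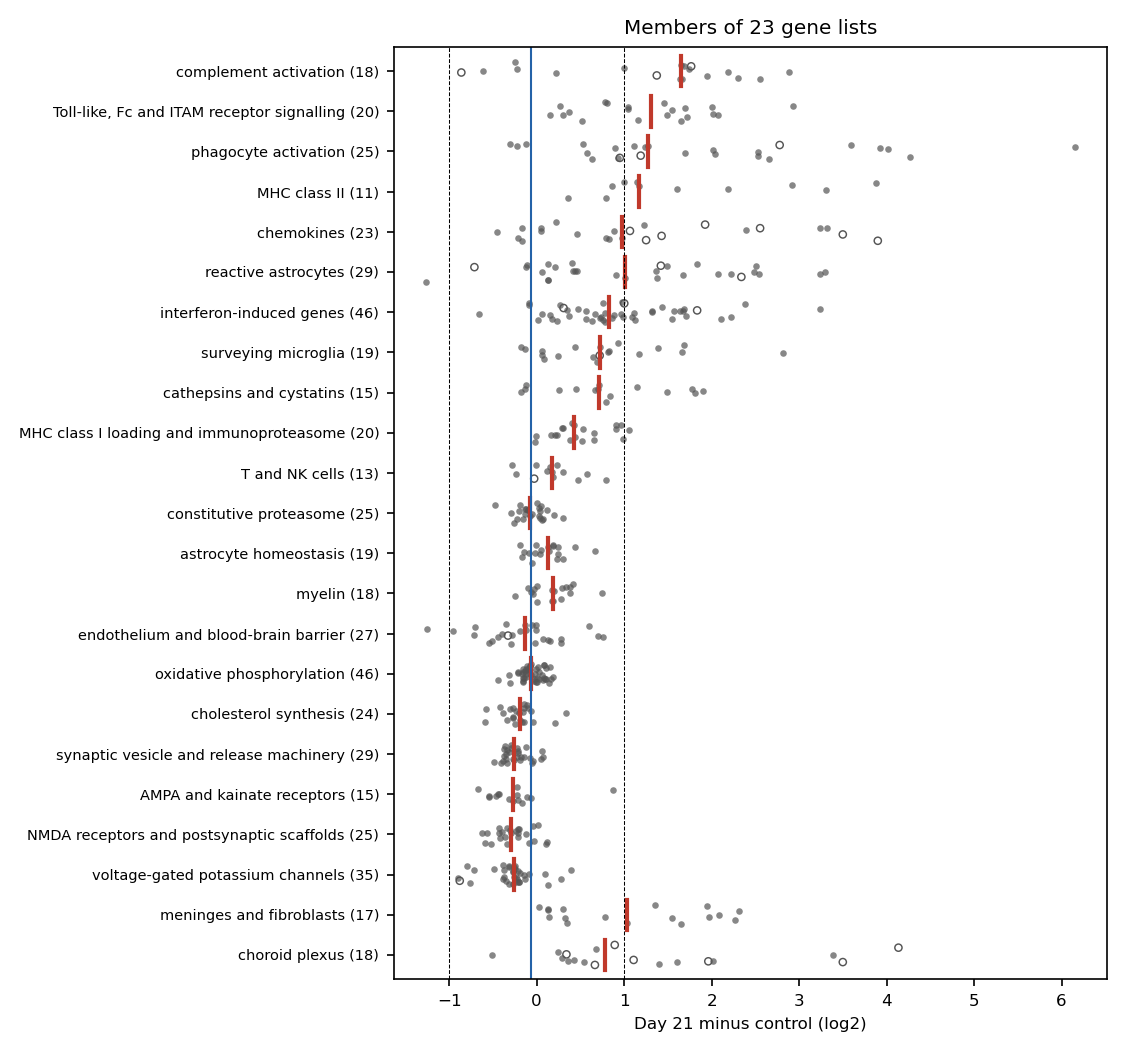
Day 21 minus control (log2) for the members of 23 gene lists, 1 point a gene and the number compared in brackets; filled points were measured on both arrays, open points are lower limits, red bars are list medians, the blue line is the median of all genes compared (-0.07) and dashed lines mark 2-fold. Complement, innate receptor, phagocyte and class II members spread to the right, while synapse and channel members sit just left of 0.

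Lysosomal proteases were higher in part. Of 15 cathepsins and cystatins compared, 5 were higher, with a median of 0.71. Ctsd, among the brightest genes of the arrays, went from 3.88 to 5.36, 2.80-fold, and Ctss, the protease that trims the invariant chain, from 2.53 to 3.68, 2.21-fold. Ctsb was 1.64-fold higher. Of 35 hydrolases and membrane proteins of the lysosome compared, 4 were higher, Cd68 among them with Laptm5 at 3.69-fold, the cholesterol carrier Npc2 at 3.53-fold and progranulin, Grn, at 2.99-fold; the list's median was 0.24.

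Reactive astrocyte genes were higher while astrocyte housekeeping was level. Of 29 markers of reactive astrocytes compared, 15 were higher and 1 lower, with a median of 1.02. Gfap, the astrocyte filament protein, went from -0.16 to 0.85, 2.02-fold, and Vim, vimentin, from -1.46 to 1.02, 5.61-fold, both printed in 10 spots. Lcn2, an iron-binding acute-phase protein, was 5.67-fold higher, Aspg 5.84-fold, ceruloplasmin, Cp, 4.66-fold, and the small heat shock protein Hspb1 3.57-fold. S1pr3 was the lower gene, by 1.26, from a dim signal, and Serpina3n differed by 0.42. Several of these, such as Serping1, Cd44 and Cxcl10, are made by other cells too. Of 19 homeostatic astrocyte genes compared, none passed 2-fold, the median was 0.13, and the water channel Aqp4 differed by 0.67 and the glutamate transporter Slc1a2 by 0.04.

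Metal-binding and acute-phase genes were higher in 7 of 15 compared, median 0.68: Mt2A went from 2.66 to 4.82, 4.45-fold, Mt1 was 2.46-fold higher and A2m, a broad protease inhibitor, 4.07-fold. Among 20 annexins and S100 proteins compared, 8 were higher, median 0.45, with the bright S100a4 going from 0.89 to 4.12, 9.40-fold, Anxa1, an anti-inflammatory annexin, 7.03-fold and S100a6 5.46-fold higher. Hmox1, the heme-degrading enzyme, was 2.46-fold higher. It was the 1 higher gene of 33 antioxidant genes compared (3.03%, against 3.62% of all genes compared). Of 34 apoptosis genes compared, 3 were higher (8.82%), all inflammatory caspases: Casp4 by 1.15, Casp1 by 1.05 and Casp12 by at least 1.11.

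Genes of the brain's borders were also higher. All 17 meningeal and fibroblast markers compared lay above 0 and 9 were higher, with a median of 1.04, Col3a1 by 2.31, Igfbp2 by 2.27, Fmod by 2.08 and Col1a2 by 1.97; Dcn, decorin, differed by 0.14. Their summed signal, in units of the array's 75th percentile, was 7.43 in control, 17.4 at day 21 and between 7.11 and 7.43 on the other 4 arrays. Of 18 choroid plexus markers compared, 8 were higher, with a median of 0.78. Ttr, transthyretin, went from 1.53 to 5.66, a saturated signal, so at least 17.6-fold, Kcnj13 was at least 11.3-fold and Sostdc1 10.5-fold higher. With normexp the difference of Sostdc1 was 1.85. Cldn2 had a lower limit of 0.34 and Aqp1 differed by 0.24.

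The choroid plexus signal also appeared where the immune genes did not. Its summed signal was 5.33 in control, 55.1 at day 21, 29.1 at day 35 and 47.2 at day 70. At days 21, 35 and 70 nearly all of it was Ttr, so the day 21 sum is a lower limit. Without Ttr the other 17 genes summed to 2.45 in control, 4.45 at day 21, 3.21 at day 35 and 3.88 at day 70. On the day 35 array Ttr stood 3.17 above control, while Cd68 and C3 differed from control by -0.27 and -0.55. The summed signal of the phagocyte list was 14.2 at day 35 and 16.3 at day 70, close to the 14.6 of control. The meningeal markers, by contrast, were high on the day 21 array only, as the immune lists were; their part in those results was not tested. Ependymal genes had a median of 0.24, with Foxj1, the master regulator of motile cilia, 2.32-fold higher and Hydin, which builds the ciliary axoneme, at least 8.33-fold lower, and dim at day 35 too.

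Neuronal genes were slightly lower as a body. Over all 12 lists of synapse and excitability genes, 268 genes were compared, 216 lay below 0 (80.6%, against 60.3% of all genes compared), 2 were higher and 4 lower, and the median was -0.22. The 2 higher genes belong to adenosine and purine signalling, the list with a median above 0, at 0.13. At day 35 the 268 genes had a median of -0.06 against the same control array. Among 29 synaptic vesicle genes the median was -0.26; the endocytic GTPase Dnm1 went from 0.02 to -0.47, Syn1 from 0.16 to -0.22 and Snap25 from 4.22 to 3.96, whereas the vesicular glutamate transporter Slc17a7 differed by 0.06.

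The glutamate receptor lists had medians between -0.30 and -0.23, the latter over 8 metabotropic receptor genes. Among 15 AMPA and kainate receptor genes compared, 14 lay below 0, median -0.27: the auxiliary subunit Cnih2 went from 2.20 to 1.53, Gria1 from 1.83 to 1.28 and Gria2 from 2.19 to 1.77. Gsg1l, which slows these receptors, was the exception at 0.87. Among 25 NMDA receptor and scaffold genes the median was -0.30, with Dlgap2 at -0.63, Grin1 at -0.56 and Dlg4, the scaffold PSD-95, at -0.43. Sodium and calcium channel genes lay below 0 in 24 of 25, led by the pacemaker channel Hcn2 at -0.73, and 31 of 35 potassium channel genes, led by Kcna4 at -0.90 and Kcna5 at -0.88. The summed signal of the phagocyte list was 14.6 in control and 57.6 at day 21, in units of the array's 75th percentile to which all values are scaled; its part in the lower neuronal values was not tested.

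Markers of the labelled tissue were present on both arrays. Granule cell genes of the dentate gyrus had a median of -0.02, C1ql2 standing at 0.77 and 0.52, and pyramidal cell genes a median of -0.20, with Neurod6 differing by -0.42 and Wfs1, a CA1 marker, at -0.44 and -1.03. Prox1 was dim, at -5.07 and -5.03. Markers of the neighbouring thalamus and striatum had medians of -0.02 and -0.11. Prkcd, which is on both the pyramidal and the thalamic list, was 1.23 higher. Bdnf, a neurotrophin, differed by -0.58.

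Trh, the precursor of thyrotropin-releasing hormone, stood out among 26 neuropeptide genes. It went from -5.86 to -2.79, 8.38-fold higher, while 22 of them lay below 0 and the next, Gal, differed by 0.59. On the later arrays Trh stood between -6.77 and -5.99. With normexp the difference of Trh was 1.51. Tac4, a tachykinin precursor made outside neurons as well, went from -4.86 to -1.85, 8.06-fold, and differed by 1.81 with normexp.

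Genes of hypoxia, energy supply and vessels were largely level. Among 29 hypoxia response genes the median was -0.11, with 2 higher, the vasodilator peptide Adm at 2.59-fold and the glycolytic enzyme Hk2 at 2.36-fold, and 1 lower, Hif3a by 1.17; Vegfa differed by -0.10. Glycolysis had a median of -0.08 and oxidative phosphorylation, over 46 genes, of -0.06 with none past 2-fold. Of 27 endothelial and barrier genes compared, 0 were higher and 1 lower, the drug efflux pump Abcb1a by 1.26, which was 1.49 lower at day 35; the tight junction gene Cldn5 differed by -0.35. Pericyte and smooth muscle genes had a median of -0.05.

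Myelin and cell division differed by little. Of 18 myelin genes compared, none passed 2-fold and the median was 0.18, with Mobp at 0.42 and Mag at 0.39; Mbp was saturated on both arrays. Of 34 cell cycle genes, 25 lay above 0 and 3 were higher, Cdk1 going from -3.82 to -2.78 in 10 spots, 2.06-fold, while Dcx, a marker of young neurons, differed by -0.47. Cholesterol synthesis ran the other way: 22 of 24 genes compared lay below 0, against 60.3% of all genes compared. Day 21 was the lowest of the 6 arrays for 17 of the 24, against 28.9% of all genes compared, and none passed 2-fold. Insig1, which restrains the pathway, went from -0.22 to -0.82, against median differences of -0.19 for the list and -0.07 for all genes compared. The sterol exporter Abca1 was 2.25-fold higher, and Apoe was saturated on both arrays.

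Circadian clock genes were evenly divided: of 21 compared, 10 lay above 0, none passed 2-fold and the median was -0.03. Tef went from 1.33 to 0.34 in 10 spots, Nr1d1 from -1.99 to -2.84 and Dbp from 3.78 to 3.17, while Per1 differed by 0.78; the hour of sampling is not given. Immediate early genes held 2 lower of 23, Dusp1 by 1.16 and Ier2 by 1.11, with Fos at 0.09 and Arc at -0.35.

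**Figure D4:**
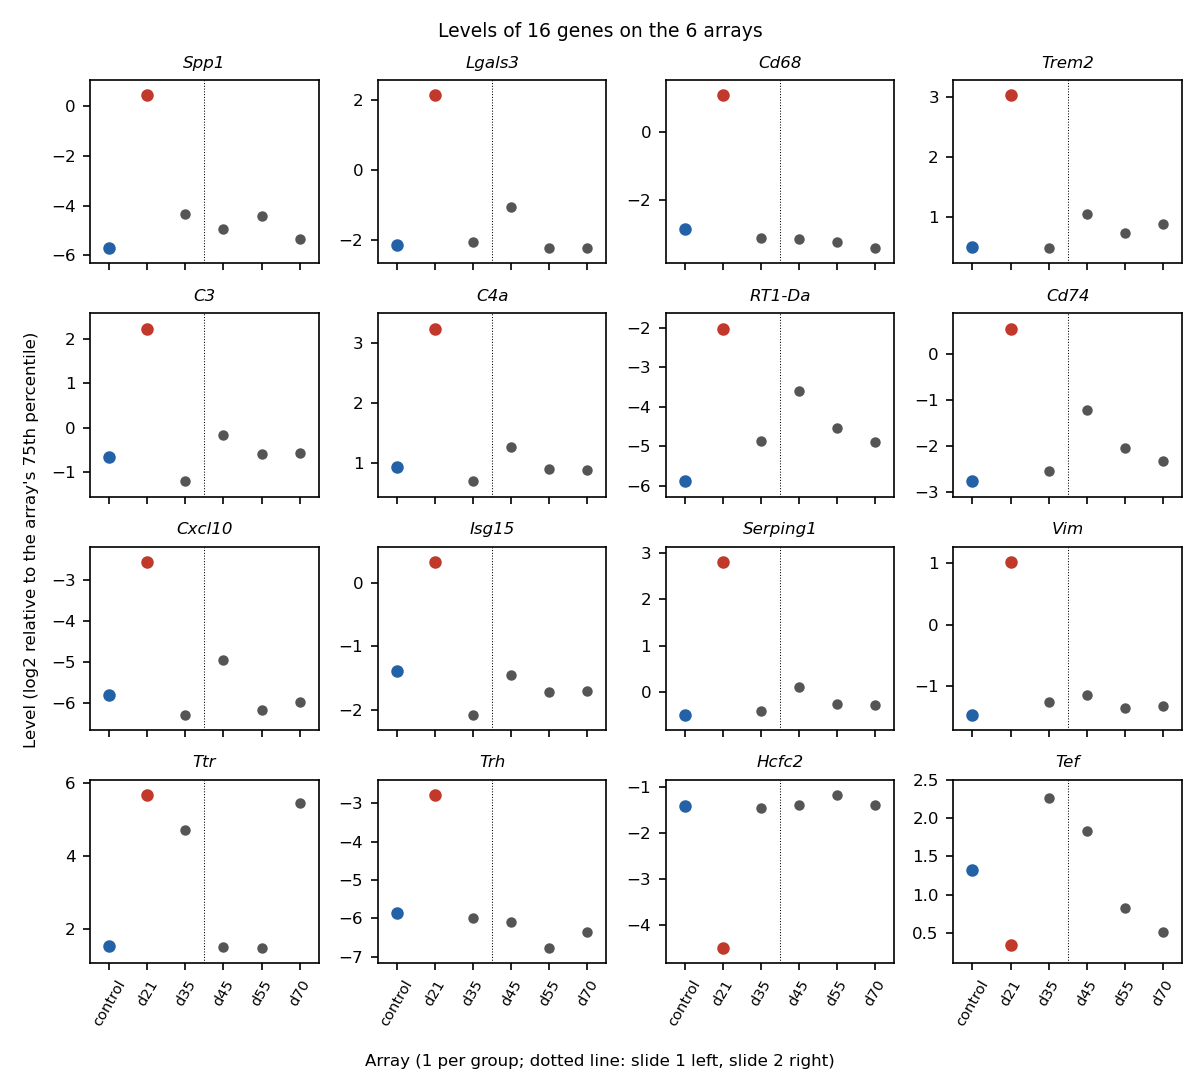
Level (log2 relative to the array's 75th percentile) of 16 genes on the 6 arrays, 1 array a group, with control in blue, day 21 in red and the later arrays in grey; the dotted line parts the slides. From Spp1 to Vim, 12 of the 16, and for Trh, day 21 lies above all other arrays; Ttr is high at days 21, 35 and 70, Hcfc2 is low at day 21 alone and Tef varies between arrays.

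For the higher genes day 21 usually stood above every other array. It was the highest of the 6 arrays for 496 of the 508 higher genes, compared with 24.9% of all genes compared, and 337 of the 380 measured on both arrays were also at least 2-fold above the day 35 array, as were 4.48% of all genes compared between those arrays. The higher genes were chosen for a day 21 value above control, so both results are partly set by that choice. Against the same control array, day 35 had 64 genes higher and 160 lower. Since both comparisons share the control, their values are given side by side only: complement activation had a median of 1.66 at day 21 and -0.11 at day 35, phagocyte activation 1.27 and -0.02, class II 1.17 and 0.08 and reactive astrocytes 1.02 and -0.04.

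**Figure D5:**
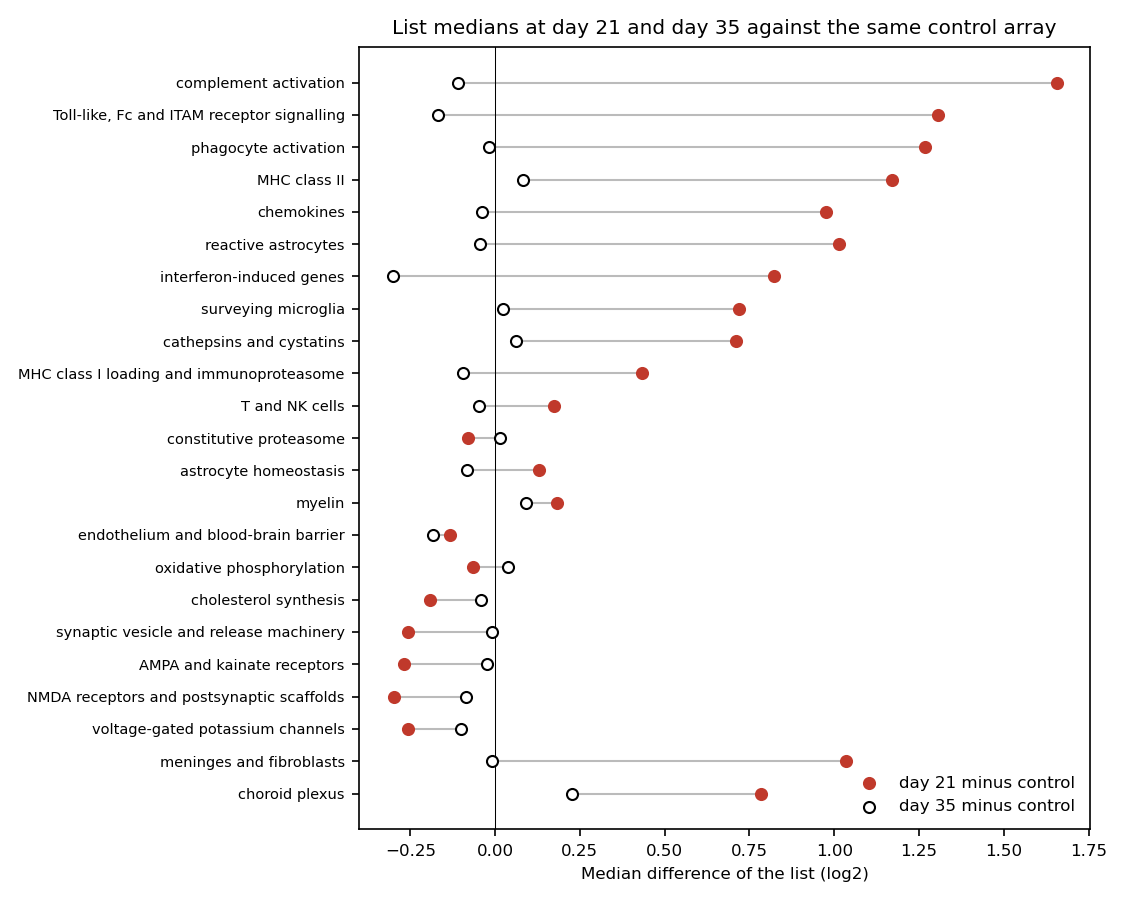
Median difference (log2) of 23 gene lists at day 21 (red) and at day 35 (open) against the same control array. From complement activation down to class I the red points lie between 0.43 and 1.66, and the open points of all lists lie between -0.30 and 0.23.

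For the lower genes it was usually the control array that stood apart. Day 21 was the lowest of the 6 arrays for 69 of the 265 lower genes (26.0%, against 28.9% of all genes compared), and control was the highest of the 6 for 244 of them (92.1%, against 23.1%). The lower genes were chosen for a control value above day 21, so both ranks are partly set by that choice. Of the 141 measured on both arrays, 49 (34.8%) were also at least 2-fold below day 35, against 1.04% of all genes compared with day 35. The largest lower limit among them, Elfn1 at 21.5-fold, belongs to a gene that was bright on the control array and on none of the other 5. Hist1h4m at -2.48, Gtsf2 at -2.41 and Cel at -1.72 were lower still at day 35, at -2.61, -2.88 and -2.04.

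Some lower genes did single out day 21. Hcfc2, a gene of the host cell factor family, went from -1.41 to -4.51, 8.54-fold lower, and stood between -1.46 and -1.17 on the later arrays. Hcfc2 rests on 1 probe printed in 1 spot. Nsd2, a histone methyltransferase, went from -1.49 to -3.85, 5.13-fold, with later arrays between -1.90 and -1.37; its second probe differed by -0.43. Car15 at -2.07 and Klhl40 at -2.29 were also dim on the second slide. Among the bright genes none was 2-fold lower. Second probes were available for few of the higher and lower genes. Of 38 higher genes with one, 34 had the same sign and 25 also passed 2-fold, and of 13 lower genes, 10 and 2. Over all 2248 genes with a second probe, 1575 had the same sign and 73 passed 2-fold the same way.

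Lists covered 178 of the 508 higher genes (35.0%) and 17 of the 265 lower ones (6.42%), against 10.3% of all genes compared. This coverage is partly set by the choice of lists, made with earlier results of these data known. Among the higher genes outside the lists, named for their size, St14, a membrane serine protease, went from -3.81 to -0.19, 12.3-fold. Slamf9, an immune cell surface receptor, was 11.9-fold higher in 10 spots. Gpr183, which guides immune cells along oxysterols, was 8.93-fold higher and Gpr18 8.58-fold. Clec12a, a myeloid inhibitory lectin, was 8.16-fold higher and the nuclear protein gene Tox2 7.95-fold. Glipr1, on the phagocyte list, was 16.1-fold higher. Several of these were dim in control. With normexp the log2 differences of Slamf9, Gpr183, Gpr18, Tox2 and Glipr1 were 1.91, 1.52, 1.46, 1.85 and 2.44. Others, named after their values were seen, were leukocyte signalling genes: Rac2, Ptpn6 and Plek were each 3.86-fold higher, Vav1 at least 5.57-fold, and the mitochondrial protein gene Tspo, whose ligands are used to image microglia, went from -1.05 to 0.75, 3.49-fold.

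Genes bright on 1 side only need more care. Of the 508 higher genes 127 were bright at day 21 only, and of the 265 lower 124 were bright in control only. Their limits depend on the background treatment. With normexp the log2 differences of Tfec, Siglec1 and Ccl2 went from 4.40, 3.99 and 3.90 to 2.02, 2.05 and 2.01. The largest lower limits included Scn7a at least 14.7-fold and 2 olfactory receptor genes, Or1e1c at least 17.5-fold and Olr990 at least 12.5-fold. Of 329 olfactory receptor genes compared, 28 were higher and 50 lower, most of them bright on 1 side only. Of all genes compared, 3.62% were higher and 1.89% lower, and of the dim genes 6.30% and 5.19%. Olfactory receptor genes form families of near copies, so which member a probe read is uncertain. Scn7a, printed in 10 spots with a second probe at least 1.67 higher, and Siglec1, in 10 spots, rest on repeated spots, while Or1e1c rests on 1 spot.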

How the data were processed

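Pooled rat hippocampal RNA was amplified and hybridised to 1-colour Agilent whole-genome arrays (design 028282). Per the file headers, the deposited intensity is the processed green-channel signal of Feature Extraction 10.7.3.1, already background-subtracted; the labels name the dye as Cy5. The array's annotation uses rn4 coordinates, per the file headers. The value table deposited by the authors, also of intensity, followed each array's mean signal minus background (rank correlation 0.9999 on the control array) and had medians of 298.0 to 298.4, so it was rescaled in a way not given in the sources used here; it served as an alternative.

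Control spots and outlier spots were left out, log2 was taken, each array's 75th percentile was subtracted (raw values of 1312 in control and 1243 at day 21), and spots of a probe were averaged. A gene with several probes was represented by the probe with the highest mean level over the arrays. Of the spots, 80.2% in control and 78.3% at day 21 were well above background. Of 30367 probes, 17673 were named by accession, 2510 by symbol and 700 by synonym through RefSeq tables, 167 kept the file's name and 9317 stayed unnamed. Named genes are the 20 largest differences measured on both arrays and the 8 largest lower limits in each direction, with members of gene lists; some of these are not reported here. The comparison, its members and its gene lists were chosen with earlier results of these data known. The arithmetic was tested on simulated data. With 1 array a side no test was run, and precision is set by that number and, for dim genes, by closeness to background. Alternatives were the background correction, scaling, filter, probe choice, baseline array and fold threshold. Software was Python 3.11.15 with numpy 2.4.6, pandas 2.3.3 and matplotlib 3.10.9, and R 4.3.3 with limma 3.58.1.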

Additional observations from a re-analysis of the deposited data

How the results depend on the processing

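No paired analysis was possible because each group has 1 array, and for the same reason no array could be left out. Scaling to the spike-in probes was not run, since 16 of 320 spike-in spots in control and 8 at day 21 were well above background. The 508 higher genes became 242 with a normexp background correction, 792 with no filter on dim probes, 1089 at a 1.5-fold threshold and 223 at 3-fold. The 265 lower genes became 28 with normexp, 113 in the authors' value table, 141 when both arrays had to be well above background, 758 with no filter, 145 against the day 35 array, 13 against the mean of the other 5 arrays, 760 at 1.5-fold and 71 at 3-fold. Normexp shared 240 of the 508 and 27 of the 265, and all 508 and 265 kept their sign; the cause of the losses was not tested. With normexp the higher genes numbered 7 for innate receptors, whose median became 0.84, 11 for interferon-induced genes and 7 for chemokines, whose median became 0.56. With both arrays well above background, chemokines had a median of 0.62 and 4 higher genes. Class I had 0 higher genes in the authors' table, 4 against day 35 and 3 against the other arrays, and the phagocyte median was 1.91 against day 35. Among named lower genes, the sign turned against day 35 for Hist1h4m (0.13), Gtsf2 (0.47), Slc12a1 (0.17) and Cel (0.32), and against the other 5 arrays for Hist1h4m (0.0024), Or4a69 (0.10) and Slc12a1 (0.38). The median over all genes ranged from -0.08 to -0.01 over the settings. Genes near background have the least precise values, and the lower genes lie mostly there.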
